A study of Salmo salar with 189 samples.

Results

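Dbp encodes D-box binding protein, a transcription factor of the PAR bZIP family and a classical output of the vertebrate circadian clock. The transcripts described here are all rows of the expression table whose name begins with Dbp. They are Dbp-Ch14 and Dbp-Ch5-1, 2 of 48 entries, named for the salmon chromosomes 14 and 5. They were followed in the optic tectum (OT, the visual centre of the midbrain), the saccus vasculosus (SV, an organ at the base of the fish brain) and the gill of Atlantic salmon. The series comprised 189 samples of 64 pre-smolt fish of about 45 g, with 63 samples per tissue in 21 groups of 3 fish. All fish were raised in constant light, spent 8 weeks in a light-dark cycle, and were held at 14 °C and without food from 48 h before sampling. The labels give the cycle as 8 h of light and 16 h of dark, whereas the study's methods describe a shorter light phase. Zeitgeber time (ZT) counts hours from lights on, and circadian time (CT) does the same in constant conditions.

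Fish of the first arm were sampled in the light-dark cycle at ZT5, ZT9, ZT13, ZT17 and ZT21, then at CT1 and CT5 with the lights on, and then in constant light (LL) from CT9 to CT29. The labels call the lit CT1 and CT5 samples LL, but by the methods they close the diel series, so this series had 7 time points and 21 fish. Fish of the second arm were sampled in constant darkness (DD) from CT1 to CT29, and the rhythm tests of both constant conditions used CT9 to CT29, 6 time points and 18 fish each. The methods place the fish in separate tanks before sampling but do not say which arm each held, and the arms follow the fish labels. If each arm had its own tank, light and tank cannot be told apart in any comparison of DD with the other conditions. The LL fish were sampled a day after the diel fish of the same hours and had fasted longer. By the methods sampling began in the cycle and moved on to LL or DD, without food throughout. The DD fish were thus also sampled after the diel fish of the same hours and had fasted longer. Light, day and fasting therefore cannot be told apart in comparisons of LL or DD with the diel series. Each fish gave all 3 tissues, apart from CT17 in DD, where 1 OT sample came from another fish. Samples of the dark phase were taken under dim red light. None of the 48 entries is a marker of a tissue, so the tissue labels were not checked against markers.

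In mammals, DBP, TEF and HLF form the PAR bZIP family. CLOCK and its partner ARNTL (BMAL1) bind E-boxes in the Dbp gene and switch it on with a daily rhythm, while the PER and CRY proteins hold this activation back. DBP in turn binds D-boxes in other genes, among them Per genes, where the repressor NFIL3 competes with it. Dbp is therefore widely used as a readout of E-box activity. Teleost fish carry more than 1 Dbp gene after their additional genome duplications. The study's gene table gives zebrafish dbpa as the orthologue of Dbp-Ch14 and dbpb as that of Dbp-Ch5-1, and lists neither as a member of a pair from the salmonid duplication. The RefSeq annotation of the assembly Ssal_v3.1 names Dbp-Ch5-1 dbpb.

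Transcripts were counted by NanoString hybridisation, in which a barcoded probe binds a stretch of about 100 bases of 1 RNA. What tells the 2 transcripts apart is the sequence of that target. The stretch around the longest identical run in both targets is shown for each, with that run in capitals.
Dbp-Ch14: cctacagaaagGCAGGGAaagaaggtaaac
Dbp-Ch5-1: gagggcaacatGCAGGGAtttctatgatga
These are bases 43 to 72 of the 100-base target of Dbp-Ch14 and bases 46 to 75 of the 87 bases listed for Dbp-Ch5-1, in the orientation of the target list. The longest run that the targets had in common was 7 bases, and it occurred at 1 place. Among all 46 targets, the longest run shared with any other was 9 bases for either transcript, with Nr1d2-Ch5 for Dbp-Ch14 and with Tef-Ch3 for Dbp-Ch5-1. GC content was 52.0% in the Dbp-Ch14 target and 48.3% in the Dbp-Ch5-1 target.

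Values are called signal, the barcode count scaled by the authors to spike-in controls of known amount. Within every one of the 189 samples the values above 1 were whole multiples of a single step (tolerance 0.0102). The number of steps was taken to stand for the barcodes counted. Some samples also held values of exactly 1, which were left out of this check. Gill replicate 3 at CT29 in DD held 4 of them, with a step of 0.94. The median sample of OT, SV and gill held 34579, 12733 and 8575 steps. Of these, medians of 765, 242 and 127 were Dbp-Ch14 and medians of 238, 38 and 57 were Dbp-Ch5-1. The least counted Dbp values were 11 steps for Dbp-Ch5-1 in the SV and 22 in the gill, where counting error alone is large. Entries that the study lists as not expressed had signals of 1 to 12.6 in the OT and of 1 to 11.8 in the gill. Every Dbp value lay above these, but no such entry had values in the SV, so the SV has no limit of its own here. By the methods the spike-in served to make samples and runs comparable, but they do not name the tissues, and SV RNA was extracted with another kit, so levels are compared within a tissue only, apart from the ranges given further on.

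In the OT both Dbp transcripts had a diel rhythm, and they peaked at different times of the night. Dbp-Ch5-1 rose from ZT5 to ZT13 and Dbp-Ch14 reached its highest level later, at ZT17. The 3 fish at ZT5 gave Dbp-Ch5-1 signals of 183, 203 and 210, those at ZT9 194, 288 and 296, and those at ZT13 331, 352 and 360. At ZT17 they gave 263, 333 and 425, at ZT21 197, 215 and 261, and on the next morning 122, 159 and 206 at CT1 and 140, 155 and 193 at CT5. The highest group was ZT13 and the lowest CT1, with means of 348 ± 15.4 and 163 ± 42.1 (SD, n = 3 fish), a fold of 2.14.

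Dbp-Ch14 in the OT stood at a like level from ZT5 to ZT13 and was high at ZT17 and ZT21. Its signals were 678, 702 and 823 at ZT5, 612, 670 and 703 at ZT9, and 691, 711 and 813 at ZT13. They reached 848, 1005 and 1289 at ZT17 and 832, 832 and 922 at ZT21, and were 680, 751 and 824 at CT1. At CT5 they were 513, 576 and 661, so all 3 fish lay below all 3 fish at ZT5, the same hour a day before. The share of the panel that did so was not counted. The highest group was ZT17 and the lowest CT5, with means of 1047 ± 224 and 583 ± 74.4 (SD, n = 3 fish), a fold of 1.80. The panel moved the same way at these hours. The mean of the other tested OT transcripts was 0.21 above its tissue mean at ZT17 and 0.21 below it at this CT5 (log2). At ZT5 it was 0.02 below.

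**Figure D1:**
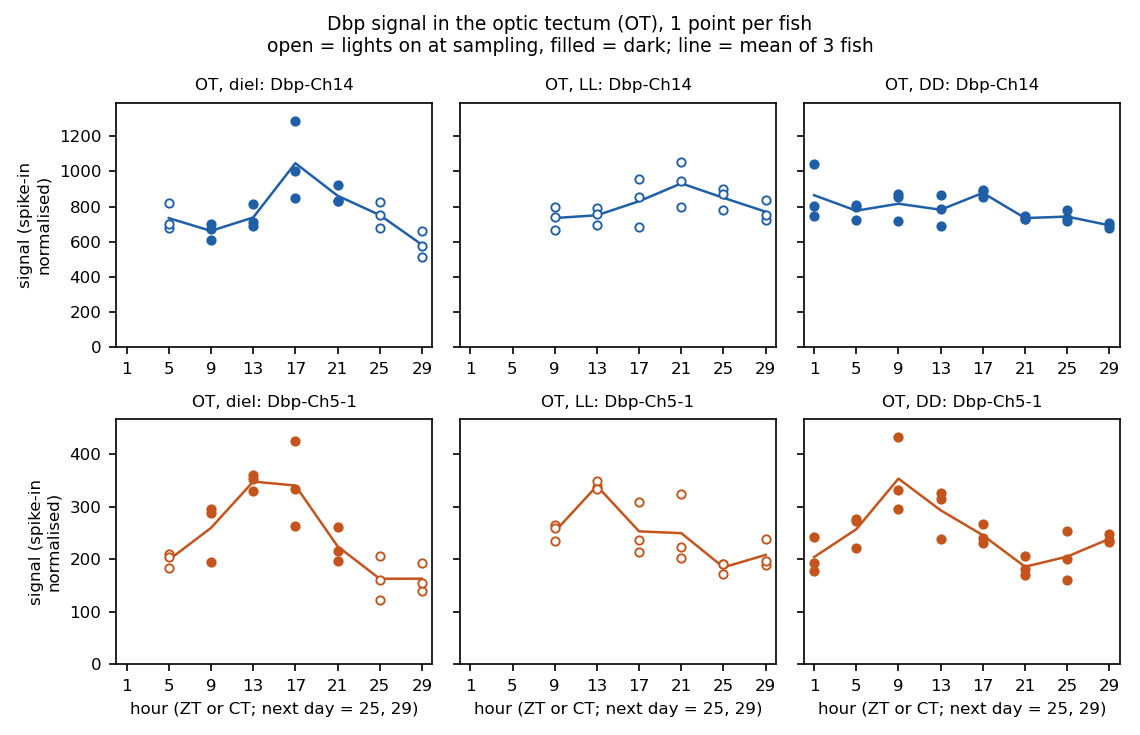
Signal of Dbp-Ch14 (top) and Dbp-Ch5-1 (bottom) in the OT against hour, with 1 point per fish, a line through the means of 3 fish, and open points for samples taken with the lights on. In the diel panels Dbp-Ch5-1 is highest at ZT13 and ZT17 and Dbp-Ch14 at ZT17, and the DD panels also hold the CT1 and CT5 of darkness that are outside the rhythm test.

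Rhythm was tested with JTK_CYCLE, a rank test of the order of the samples against cosine curves of 20 and 24 h, adjusted over its 11 curves, with a threshold of 0.05. The JTK_CYCLE adjusted p was 0.000298 for Dbp-Ch5-1 and 1.93e-05 for Dbp-Ch14 in the OT diel series. After a further Benjamini-Hochberg adjustment over the 42 transcripts tested these became 0.00104 and 0.000162. Both transcripts passed, in a tissue where 20 of 42 transcripts (47.6%) did. A 24 h cosine fitted to log2(signal + 1) gave Dbp-Ch5-1 an amplitude, from mean level to peak, of 0.59 ± 0.08 (SE) with the peak at 14.3 ± 0.52 h. The amplitude of Dbp-Ch14 was 0.30 ± 0.06 with the peak at 18.6 ± 0.83 h. Dbp-Ch5-1 had the fifth largest diel amplitude of the 42 transcripts and Dbp-Ch14 the sixteenth. When each sample was also scaled by the other expressed transcripts, the amplitudes were 0.47 and 0.20 and the peaks 13.7 and 20.1 h. The order of the peaks was thus kept and their distance was larger. The transcripts used for this scaling belong to the same clock panel, and many were rhythmic themselves. Without replicate 3, which leaves 2 fish at each time point, the adjusted p of Dbp-Ch5-1 was 0.0544. In the samples labelled light-dark only (ZT5 to ZT21), a limma fit of the cosine gave adjusted p of 2.51e-05 for Dbp-Ch5-1 and 0.011 for Dbp-Ch14, and 19 of 42 transcripts (45.2%) passed.

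In LL the rhythm of Dbp-Ch5-1 continued in the OT, whereas that of Dbp-Ch14 did not pass the test. The 3 fish at CT13 gave Dbp-Ch5-1 signals of 334, 336 and 348, and those at CT25 gave 171, 191 and 191. These were the highest and lowest groups, with means of 339 ± 7.52 and 184 ± 11.4 (SD, n = 3 fish), a fold of 1.84. The JTK_CYCLE adjusted p of Dbp-Ch5-1 was 0.000755 (0.00453 after Benjamini-Hochberg), its amplitude 0.35 ± 0.07 (SE) and its peak at 13.7 ± 0.80 h. Leaving out replicate 2 gave 0.208. Dbp-Ch14 ranged between a mean of 735 ± 67.6 at CT9 and one of 932 ± 130.1 at CT21, where the fish overlapped. Its adjusted p was 0.0809, its amplitude 0.16 ± 0.05 and its peak at 21.6 ± 1.16 h. Thus 1 of the 2 Dbp transcripts passed in LL, where 13 of 42 transcripts (31%) did.

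In DD both transcripts passed in the OT, Dbp-Ch5-1 with a large amplitude and Dbp-Ch14 with a small one. Dbp-Ch5-1 was highest at CT9, with 296, 332 and 432, and lowest at CT21, with 169, 182 and 205. The means were 353 ± 70.3 and 185 ± 18.2 (SD, n = 3 fish), a fold of 1.91. Its JTK_CYCLE adjusted p was 0.00115 (0.00691 after Benjamini-Hochberg), its amplitude 0.42 ± 0.07 (SE) and its peak at 10.5 ± 0.65 h. Without replicate 2 the p was 0.0833. Dbp-Ch14 was highest at CT17, with 855, 886 and 894, and lowest at CT29, with 677, 696 and 708, a fold of 1.27. Its adjusted p of 0.0359 became 0.125 after Benjamini-Hochberg over the 42 transcripts, 0.456 without replicate 2 and 0.208 without replicate 3. Its amplitude was 0.12 ± 0.04 and its peak at 14.9 ± 1.26 h, or 19.4 h when samples were scaled by the other transcripts. In DD 16 of 42 transcripts (38.1%) passed, and 9 (21.4%) after Benjamini-Hochberg, a count that held Dbp-Ch5-1 and not Dbp-Ch14.

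Whether the rhythm of a transcript differed between series was tested with limma, which fits 1 linear model to every transcript and shares the spread between them. The test asks whether amplitude and peak time are jointly equal. Between DD and the diel series the rhythm of Dbp-Ch5-1 in the OT changed (limma adjusted p = 0.000214), with a ratio of amplitudes of 0.71 and a peak 3.78 h earlier in DD (13.7 and 9.98 h after scaling by the other transcripts). The rhythm of Dbp-Ch14 also differed (adjusted p = 0.0255), with a ratio of amplitudes of 0.40, but the p was 0.105 to 0.169 when any 1 replicate was left out and 0.0678 when samples were scaled by the other transcripts. In this comparison 13 of 42 transcripts (31%) passed. Between LL and the diel series the adjusted p was 0.149 for Dbp-Ch5-1 and 0.0596 for Dbp-Ch14, where 10 of 42 (23.8%) passed. After scaling by the other transcripts that of Dbp-Ch14 was 0.00517. Between LL and DD the adjusted p was 0.0633 for Dbp-Ch5-1 and 0.0993 for Dbp-Ch14, where 4 of 42 (9.52%) passed. The LL and DD comparisons share the diel samples.

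The ratio of the transcripts within a sample compares their time courses directly, since any scaling of the whole sample cancels in it. A constant difference between the probes shifts the ratio but not its rhythm. The log2 ratio of Dbp-Ch14 to Dbp-Ch5-1 in the OT was lowest at ZT13 of the diel series, with 0.94 to 1.21 in the 3 fish, and highest at CT1 of the next morning, with 1.99 to 2.47. A permutation test of the time points over the 21 samples (100000 resamples) gave p = 1e-05, the smallest it can give. After Benjamini-Hochberg over 9 combinations of tissue and series it was 4.5e-05. The ratio thus changed over the day, so the transcripts did not follow the same course. The amplitude of the log2 ratio was 0.53 ± 0.06 (SE), with the peak at 0.29 ± 0.39 h.

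The ratio was also rhythmic in constant conditions in the OT. In LL it ran from 1.14 ± 0.09 (SD) at CT13 to 2.20 ± 0.16 at CT25, with an amplitude of 0.45 ± 0.07 (SE), a peak at 0.49 ± 0.56 h and an adjusted permutation p of 0.00021. In DD it ran from 1.22 ± 0.21 (SD) at CT9 to 1.99 ± 0.12 at CT21, with an amplitude of 0.38 ± 0.05 (SE) and an adjusted permutation p of 4.5e-05. Its peak in DD was at 21.4 ± 0.51 h. All 57 OT samples of these series had a ratio above 0, and all 3 results passed without any 1 replicate and with a pseudocount of 10. The peak of Dbp-Ch14 came 4.25 h after that of Dbp-Ch5-1 in the diel series, 7.86 h after it in LL and 4.36 h after it in DD, although Dbp-Ch14 did not pass the rhythm test in LL. After scaling by the other transcripts the peaks of Dbp-Ch14 were at 20.1, 23.7 and 19.4 h in these series and those of Dbp-Ch5-1 at 13.7, 12.8 and 9.98 h.

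**Figure D2:**
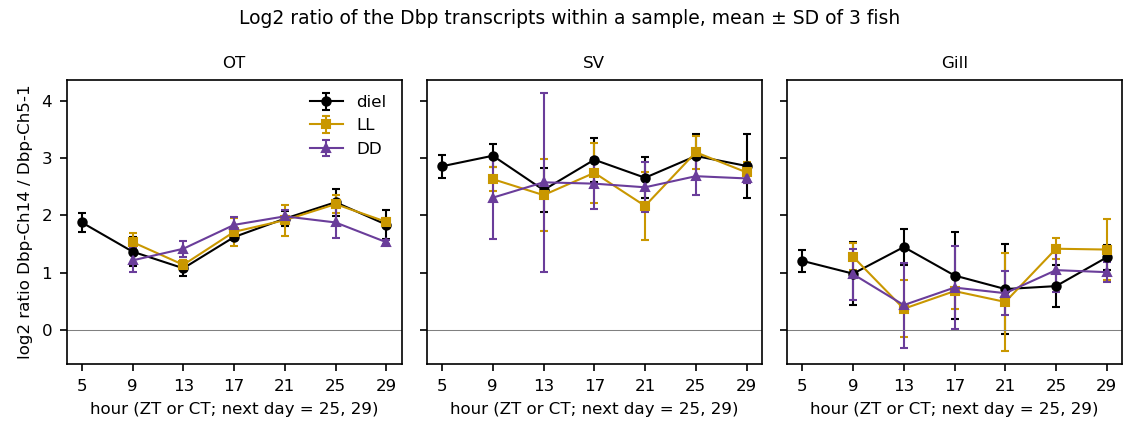
Log2 ratio of the signals of Dbp-Ch14 and Dbp-Ch5-1 within a sample against hour in each tissue, as mean ± SD of 3 fish, for the diel series, LL and DD. In the OT the 3 series dip at hours 9 to 13 and are high from hour 21, with DD turning down earlier, while the SV lies higher (mean 2.68) and the gill lower (mean 0.97).

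Withholding the morning light was accompanied by higher levels of both transcripts in the OT. At CT5 the lit fish gave Dbp-Ch5-1 signals of 140, 155 and 193 and the dark fish gave 222, 272 and 277. For Dbp-Ch14 the lit fish gave 513, 576 and 661 and the dark fish 726, 797 and 808. Every lit fish at CT5 was below every dark fish for either transcript, which held for 20 of 42 transcripts (47.6%). The lit fish at ZT5, a day before those at CT5, gave Dbp-Ch14 signals of 678, 702 and 823, which overlapped the dark fish of CT5. Their Dbp-Ch5-1 signals of 183, 203 and 210 lay below all 3 dark fish. How many other transcripts did so was not counted. ZT5 was not tested against the dark CT5. In the limma fit over the 21 groups the difference of lit minus dark at CT5 was −0.66 ± 0.18 (SE, log2) for Dbp-Ch5-1 (adjusted p = 0.00338) and −0.42 ± 0.13 for Dbp-Ch14 (adjusted p = 0.00858). Over CT1 and CT5 together it was −0.50 ± 0.13 (adjusted p = 0.00142) and −0.30 ± 0.09 (adjusted p = 0.00495).

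The lower level in the light was shared widely over the panel. Over CT1 and CT5, 21 of 42 transcripts (50%) were lower in the light and 1 (2.38%) was higher, with a median difference of −0.26 over all 42. At CT5 alone 18 (42.9%) were lower and 2 (4.76%) higher. When each sample was also scaled by the other transcripts, 15 were lower and 8 higher over CT1 and CT5, the median was −0.08, and the differences were −0.33 for Dbp-Ch5-1 (adjusted p = 0.00137) and −0.13 for Dbp-Ch14 (adjusted p = 0.0225). Dbp-Ch5-1 had the third lowest difference of the 42 in the deposited scaling and Dbp-Ch14 the fifteenth lowest. The result of Dbp-Ch14 rested in part on 1 fish per group: without replicate 2 its difference over CT1 and CT5 was −0.21 (adjusted p = 0.186), and at CT5 the adjusted p was 0.214 for Dbp-Ch14 and 0.118 for Dbp-Ch5-1. An exact permutation of the light labels within CT1 and CT5 gave p = 0.02 for Dbp-Ch5-1 and p = 0.03 for Dbp-Ch14 (two-sided). The lit fish are the last samples of the diel series, so these differences and the diel rhythm rest partly on the same fish.

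At CT1 alone the differences did not pass, with −0.34 for Dbp-Ch5-1 (95% interval −0.71 to 0.02, limma adjusted p = 0.219) and −0.19 for Dbp-Ch14 (−0.45 to 0.07, adjusted p = 0.272). The fish overlapped, with Dbp-Ch5-1 at 122 to 206 in the light and 176 to 242 in the dark. A day later, at CT29, Dbp-Ch14 stood at 724, 753 and 836 in LL and at 677, 696 and 708 in DD, and Dbp-Ch5-1 at 189, 197 and 238 in LL and 233, 236 and 247 in DD. These values were not tested on their own.

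**Figure D3:**
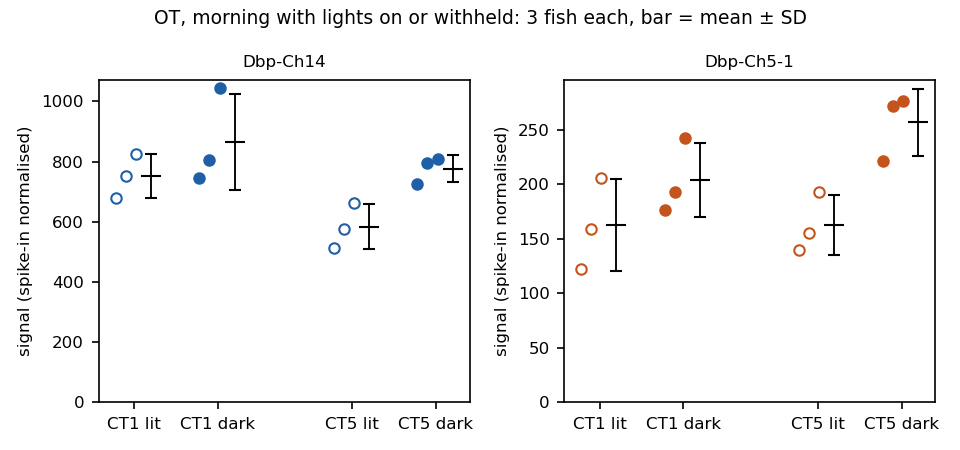
Signal of Dbp-Ch14 (left) and Dbp-Ch5-1 (right) in the OT at CT1 and CT5, with open points for fish with the lights on, filled points for fish in darkness, and bars for the mean ± SD of 3 fish. At CT5 all filled points lie above all open points, and at CT1 they overlap.

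Averaged over the day, constant light or darkness did not shift the level of either transcript in the OT past the threshold. LL minus DD over CT9 to CT29 was 0.06 for Dbp-Ch14 (95% interval −0.04 to 0.17, limma adjusted p = 0.393) and −0.02 for Dbp-Ch5-1 (−0.17 to 0.12, adjusted p = 0.797). In the deposited scaling 16 of 42 transcripts (38.1%) were higher in LL and 6 (14.3%) lower. With samples scaled by the other transcripts, 9 were higher and 20 lower, and the Dbp differences became −0.07 (adjusted p = 0.0159) and −0.16 (adjusted p = 0.00404). The direction for Dbp-Ch14 thus turned with the scaling. Over hours 9 to 21, LL minus diel was −0.01 for Dbp-Ch14 and −0.08 for Dbp-Ch5-1, and DD minus diel was −0.02 and −0.13, none of which passed in the deposited scaling. After scaling by the other transcripts LL minus diel passed for both by limma, with −0.09 for Dbp-Ch14 (adjusted p = 0.0265) and −0.16 for Dbp-Ch5-1 (adjusted p = 0.022). There 17 transcripts were lower and 8 higher in place of 1 and 7. The transcripts used for scaling are clock genes of the same panel, and some of them differed between light conditions themselves.

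Neither transcript passed the rhythm test in the SV in any series. The nearest was Dbp-Ch5-1 in the diel series (JTK_CYCLE adjusted p = 0.0537), with a mean of 57.9 ± 18.4 at ZT17 and 29.7 ± 10.2 at CT5 (SD, n = 3 fish). Its amplitude was 0.41 ± 0.14 (SE) and its peak at 16.5 ± 1.47 h, and a limma fit of the same cosine gave an adjusted p of 0.0422, where 11 of 40 transcripts (27.5%) passed. Dbp-Ch14 gave 309, 529 and 546 at ZT17, its highest group, and 178, 225 and 247 at CT5, its lowest. Its JTK_CYCLE adjusted p was 0.245 and its amplitude 0.30 ± 0.12. In the SV diel series 9 of 40 transcripts (22.5%) passed.

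In constant conditions the SV fish scattered widely. In DD the 3 fish at CT13 gave Dbp-Ch14 signals of 176, 364 and 705, and those at CT17 gave 186, 230.0 and 567. The JTK_CYCLE adjusted p in DD was 0.839 for Dbp-Ch14 and 1 for Dbp-Ch5-1, where 3 of 40 (7.5%) passed. In LL it was 1 and 0.484, where 0 of 40 (0%) passed JTK_CYCLE, 5 had an unadjusted p under 0.05, and 0 passed the limma cosine fit. The highest SV value of Dbp-Ch5-1, 138 at CT21 in LL, came from the least counted sample of the series, which held 1385 steps in all and 17 for Dbp-Ch5-1. Without this sample and another SV sample of LL with 3976 steps, the amplitude of Dbp-Ch5-1 in LL was 0.30 ± 0.18 (SE) in place of 0.39 ± 0.20, and its adjusted p was 0.522.

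**Figure D4:**
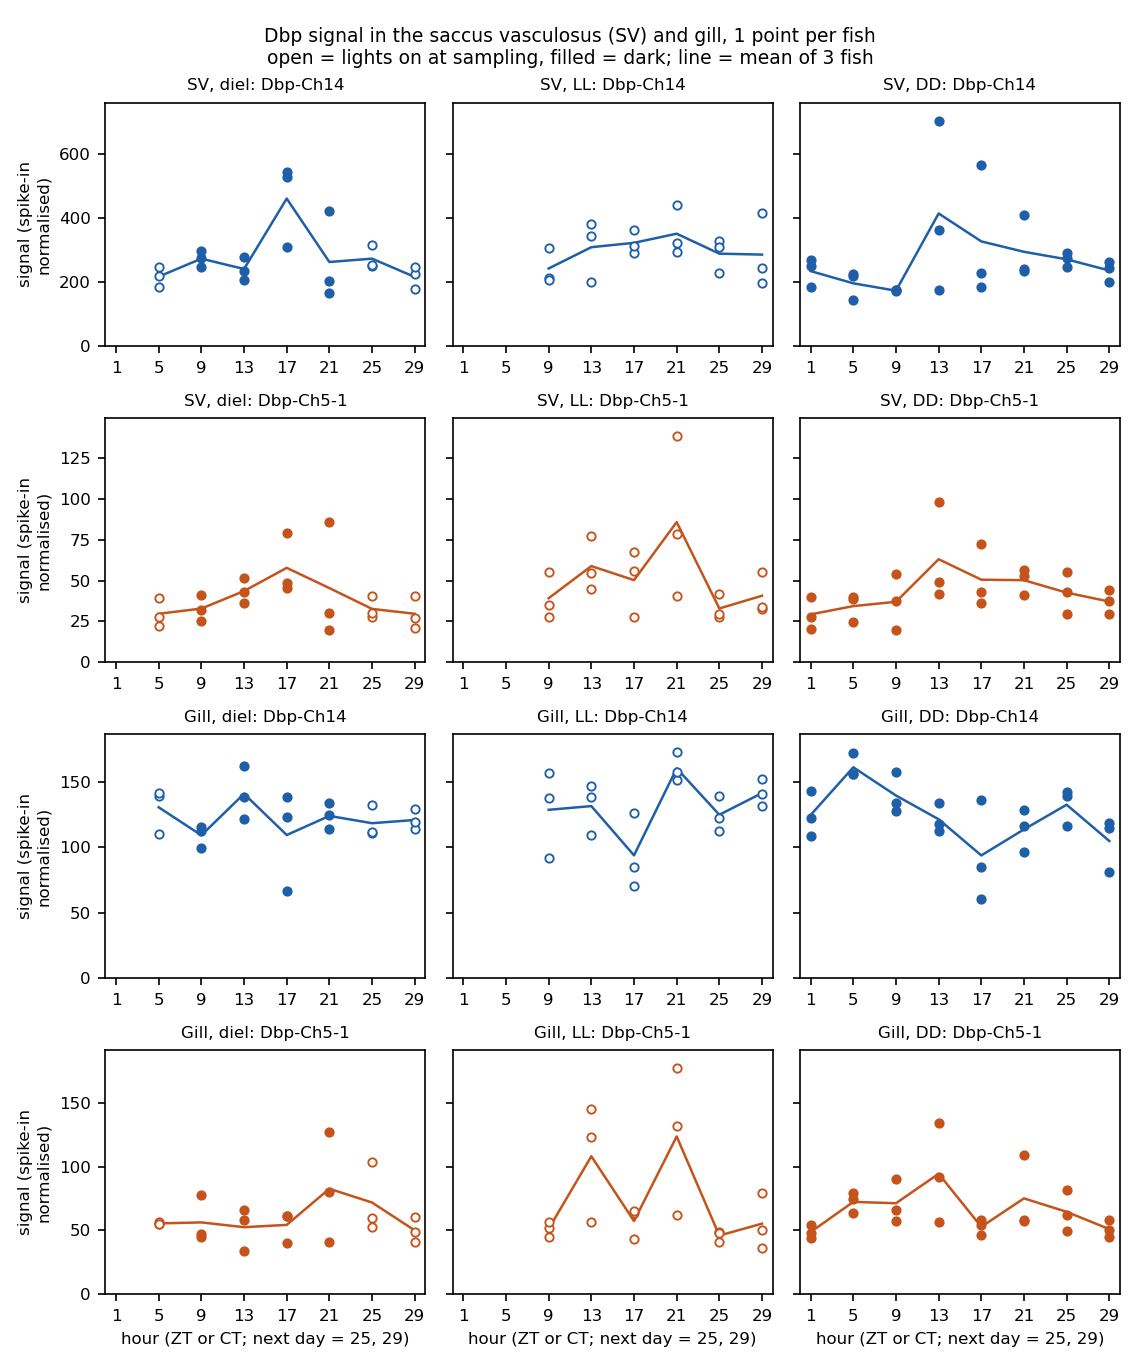
Signal of Dbp-Ch14 and Dbp-Ch5-1 in the SV (upper rows) and gill (lower rows) against hour, with 1 point per fish, lines through the means of 3 fish and open points for samples taken with the lights on. The fish of a time point spread over much of the range of the series, as at CT13 of DD in the SV (176 to 705 for Dbp-Ch14).

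In the gill no rhythm of Dbp passed either. Dbp-Ch14 was nearly flat in the diel series, with group means between 109 ± 8.76 at ZT9 and 141 ± 20.5 at ZT13 (SD, n = 3 fish), an amplitude of 0.03 ± 0.08 (SE) and a JTK_CYCLE adjusted p of 1. This was the smallest amplitude of the 40 transcripts tested there, and it was 0.10, 0.091 and 0.091 when replicate 1, 2 or 3 was left out. At ZT17 the 3 fish gave Dbp-Ch14 signals of 66.6, 123 and 138, the lowest from a sample with 4667 steps in all. The mean of the other tested gill transcripts lay 0.27 below its tissue mean at this hour (log2). Dbp-Ch5-1 had means between 50.0 ± 9.69 at CT5 and 82.6 ± 43.2 at ZT21 and an adjusted p of 1, in a series where 6 of 40 transcripts (15%) passed. In LL, where 6 of 40 (15%) passed, Dbp-Ch5-1 had high values at hours that are not neighbours. The 3 fish gave 56.2, 123 and 145 at CT13, 42.9, 63.5 and 65.4 at CT17, and 62.0, 132 and 177 at CT21. The panel shared the dip. The mean of the other tested gill transcripts lay 0.35 below its tissue mean at CT17, and 0.21 and 0.30 above it at CT13 and CT21 (log2). The JTK_CYCLE adjusted p of Dbp-Ch5-1 was 0.586, or 0.0359 when samples were scaled by the other transcripts. Its amplitude was 0.41 ± 0.21, or 0.16 without replicate 3. In DD the adjusted p was 0.703 for Dbp-Ch14 and 1 for Dbp-Ch5-1, where 4 of 40 (10%) passed.

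Morning light showed no passed difference in the SV or gill. In the gill, Dbp-Ch14 at CT5 gave 114, 119 and 129 in the light and 156, 156 and 172 in the dark. These did not overlap, as was so for 11 of 40 transcripts (27.5%), and the limma difference was −0.41 ± 0.22 (SE, adjusted p = 0.388). In the SV the difference over CT1 and CT5 was 0.19 for Dbp-Ch14 (95% interval −0.30 to 0.68) and −0.02 for Dbp-Ch5-1 (−0.59 to 0.55). No change of rhythm between series passed for a Dbp transcript in either tissue, with the lowest limma adjusted p at 0.777. Of all 40 transcripts 0 (0%) passed in the SV between LL, DD and the diel series, where 0 to 2 had an unadjusted limma p under 0.05. In the gill 1 (2.5%) passed between DD and the diel series and 0 in the other comparisons, where 1 and 3 had an unadjusted p under 0.05.

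The level over the day in constant conditions did not differ past the threshold in these tissues either. LL minus DD was 0.15 for Dbp-Ch14 (95% interval −0.13 to 0.44) and 0.07 for Dbp-Ch5-1 (−0.26 to 0.40) in the SV, where 15 of 40 transcripts (37.5%) were higher in LL by the limma fit and 0 (0%) lower. After scaling by the other transcripts 3 were higher and 2 lower there, and the Dbp differences became −0.14 and −0.22, neither passing. In the gill it was 0.14 (−0.04 to 0.32) and 0.01 (−0.28 to 0.30). Dbp-Ch5-1 in the gill was 0.39 higher in LL than in the diel series over hours 9 to 21, which missed the threshold (95% interval 0.04 to 0.74, limma adjusted p = 0.254). The difference was 0.67 without replicate 1 and 0.22 without replicate 2. In that comparison 1 of 40 transcripts (2.5%) was higher in LL.

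Diel amplitude was compared between tissues by permuting tissue labels within time points, after each tissue was centred on its mean. The amplitude of Dbp-Ch14 was 0.26 larger in the OT than in the gill (permutation p = 0.00091, adjusted p = 0.0071), in a comparison that 8 of 39 transcripts (20.5%) passed. When any 1 replicate was left out the adjusted p was 0.127 to 0.321, and without replicate 1 the difference was 0.16. At ZT17 the mean of the other tested transcripts was 0.21 above its tissue mean in the OT and 0.27 below it in the gill (log2). For Dbp-Ch5-1 the amplitude difference between OT and gill was 0.33 (adjusted permutation p = 0.156). A limma test of amplitude and peak time together passed between OT and gill for both, with adjusted p of 0.000578 for Dbp-Ch5-1 and 0.0403 for Dbp-Ch14. It did so for 12 of 39 transcripts (30.8%). OT and SV did not differ past the threshold, with −0.01 for Dbp-Ch14 (adjusted permutation p = 0.986) and 0.18 for Dbp-Ch5-1 (adjusted p = 0.461), where 4 of 38 transcripts (10.5%) passed. SV and gill did not either (adjusted permutation p = 0.431 and 0.818), where 0 of 36 (0%) passed, 3 had an unadjusted permutation p under 0.05 and 1 passed the limma test. The spread within groups was wider in the SV, where it was 0.43 for Dbp-Ch14 and 0.52 for Dbp-Ch5-1 (pooled SD, log2), against 0.15 and 0.23 in the OT and 0.26 and 0.44 in the gill.

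**Figure D5:**
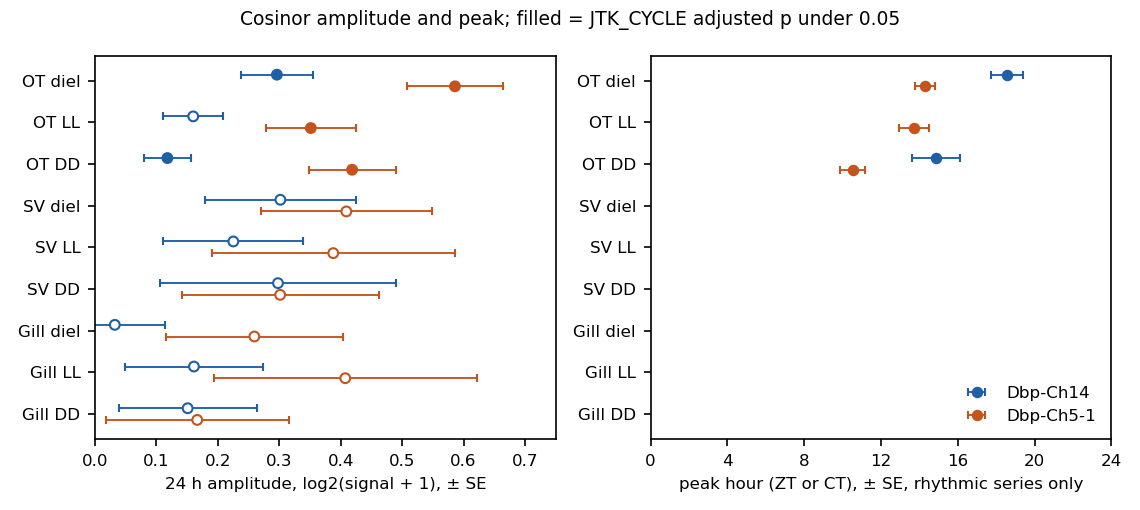
Left, amplitude of the 24 h cosine on log2(signal + 1) with its SE for each tissue and series, filled where the JTK_CYCLE adjusted p was under 0.05. Right, peak hour with its SE for those series, in which the Dbp-Ch5-1 peaks lie at 10.5 to 14.3 h and the Dbp-Ch14 peaks at 14.9 and 18.6 h.

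By range, Dbp-Ch14 signal was 513 to 1289 in the OT (median 779), 146 to 705 in the SV (median 248) and 60.5 to 172 in the gill (median 126). The OT and gill did not overlap, and the SV overlapped both. Dbp-Ch5-1 signal was 122 to 432 in the OT (median 236), 33.7 to 177 in the gill (median 57.6) and 19.6 to 138 in the SV (median 40.4), with overlap between each tissue and the others. These levels depend on how the tissues were scaled, but the ratio of the transcripts within a sample does not. The mean log2 ratio of Dbp-Ch14 to Dbp-Ch5-1 was 2.68 ± 0.50 in the SV, 1.71 ± 0.35 in the OT and 0.97 ± 0.52 in the gill (SD, 63 samples each). All 3 differences between tissues passed a permutation of tissue labels within light and time, each with p = 1e-05 before and after Benjamini-Hochberg over 3 pairs, the smallest that 100000 resamples can give. The differences were −0.97 for OT minus SV, 0.74 for OT minus gill and 1.71 for SV minus gill. The ratio was above 0 in 63 of 63 OT samples, 63 of 63 SV samples and 61 of 63 gill samples.

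The ratio had no diel rhythm past the threshold in the SV (adjusted permutation p = 0.666) or the gill (adjusted p = 0.423). In the gill in LL it passed (amplitude 0.55 ± 0.16 SE, adjusted permutation p = 0.0389), but not without any 1 replicate (0.0522 to 0.496).

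The other PAR bZIP transcripts of the panel are Tef-Ch1, Tef-Ch28, Tef-Ch3, Tef-Ch6, Hlf-Ch1 and Hlf-Ch28, which encode the family members TEF and HLF. In the OT diel series 2 of the 6 passed JTK_CYCLE, Tef-Ch3 with an amplitude of 0.53 ± 0.08 (SE) and a peak at 20.0 h, and Tef-Ch6 with 0.49 ± 0.07 and a peak at 19.7 h. The median amplitude of the 6 was 0.16, beside 0.23 over all 42 transcripts, of which 47.6% passed. In LL, where 31% of all passed, and in DD, where 38.1% did, 1 of the 6 passed, which was Hlf-Ch28 in either case, with an amplitude of 0.36 ± 0.08 and a peak at 15.7 h in LL and of 0.30 ± 0.09 and 15.2 h in DD. Tef-Ch3 and Tef-Ch6 had LL amplitudes of 0.06 and 0.10 with adjusted p of 1 and 0.995, whereas that of Dbp-Ch5-1 was 0.35. In the SV diel series 3 of the 6 passed (Hlf-Ch28, Tef-Ch3 and Tef-Ch6), beside 22.5% of all transcripts. In the gill 0 of the 6 did in any series, beside 15%, 15% and 10% of all transcripts under diel, LL and DD conditions. Over CT1 and CT5 in the OT 1 of the 6, Tef-Ch1, was lower in the light, beside 50% of all 42.

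The list for the repressor side of the clock loop (Per, Cry, Ciart and the Nr1d nuclear receptors, without Cry4-Ch13) had 17 transcripts tested in the OT. Of these, 12 passed the diel rhythm test, 9 that in LL and 6 that in DD, with median amplitudes of 0.30, 0.22 and 0.17. Of the 6 activator transcripts (Arntl1 and Clock), 3 passed in diel samples, 1 under LL and 4 under DD. The shares over all 42 transcripts were 47.6%, 31% and 38.1%. Over CT1 and CT5 in the OT, 6 of the 17 repressor transcripts were lower in the light and 1 was higher, and 3 of the 6 activator transcripts were lower, beside 50% lower and 2.38% higher over all 42.

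The transcripts most like each Dbp transcript were ranked by Pearson's r of log2 means over the 21 groups of a tissue, a description in which all transcripts share the samples and their scaling. In the OT, Dbp-Ch14 was most like Cry2-Ch26 (r = 0.87), a cryptochrome repressor, then Nr1d2-Ch14 (0.81) and Nr1d2-Ch27 (0.80), which encode REV-ERB beta receptors. Dbp-Ch5-1 was most like Nr1d1-Ch6 (0.85), a REV-ERB alpha gene, then Clock-Ch23 (0.77) and Per1-Ch4 (0.74). The r between the Dbp transcripts was 0.33, 0.74 and 0.41 in OT, SV and gill, and −0.21, 0.61 and −0.14 after samples were scaled by the other transcripts, so its sign turned in OT and gill. In the SV, Dbp-Ch14 was most like CKId-Ch28 (0.85), Nr1d2-Ch27 (0.84) and Clock-Ch10 (0.82), and Dbp-Ch5-1 most like Hlf-Ch28 (0.87), Tef-Ch3 (0.77) and Dbp-Ch14 (0.74). In the gill, Dbp-Ch14 was most like Tef-Ch1 (0.89), Nr1d2-Ch27 (0.85) and Arntl1-Ch11 (0.84), and Dbp-Ch5-1 most like Per1-Ch11 (0.75), Ciart-Ch14 (0.69) and Nr1d2-Ch5 (0.68).

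Much of the panel moved together across groups. With the mean of all other tested transcripts, the group means of Dbp-Ch14 had an r of 0.77, 0.78 and 0.86 in OT, SV and gill, and those of Dbp-Ch5-1 of 0.60, 0.51 and 0.57. Within groups, the deviations of single fish from their group mean had an r between the Dbp transcripts of 0.66, 0.41 and 0.13 (63 samples per tissue). After samples were scaled by the other transcripts this r was −0.04, 0.09 and −0.19.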

How the data were processed

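RNA was extracted with RNeasy micro (SV) or mini (OT, gill) kits. The authors scaled NanoString barcode counts to spiked positive controls with nSolver and deposited signal values for 189 samples in 1 table. Whether background was subtracted is not given in the sources used here. Of 48 entries, 45, 40 and 46 had values in all samples of OT, SV and gill. Those the study lists as not expressed, 3 in the OT and 6 in the gill, were dropped, leaving 42, 40 and 40. Tests ran on log2(signal + 1) over these, and the Dbp rows were reported with, for each Dbp transcript and tissue, the 3 transcripts of highest correlation. The Dbp transcripts, the lists and the form of the JTK_CYCLE curves (half-interval shifts, pi rounded to 4 decimals) were chosen with earlier results of these data known. JTK_CYCLE was written in Python 3.11.15, its null computed exactly, and limma 3.58.1 was run in R 4.3.3 with Benjamini-Hochberg adjustment. Both were checked on simulated data. Replicates are separate fish, numbered in accession order. The sample titles give the fish, which pairs the tissues. Deviations of a fish from its group mean had a median correlation over transcripts of 0.11 between OT and SV, 0.12 between OT and gill and 0.09 between SV and gill. In the same order it was 0.31, 0.28 and 0.52 for Dbp-Ch5-1 and −0.06, 0.20 and −0.19 for Dbp-Ch14. The limma test between tissues did not pair the fish. Alternatives were leaving out each replicate, scaling by other transcripts, a pseudocount of 10, other rhythm tests, no filter and the fish as a block.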

Additional observations from a re-analysis of the deposited data

Results flagged for a closer look

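The difference in diel amplitude of Dbp-Ch14 between OT and gill, 0.26 on the log2 scale (adjusted permutation p = 0.0071), stood out because an effect of time of day in one tissue was tested against that in another. The amplitudes were 0.30 in the OT and 0.03 in the gill, and the gill value was 0.091 to 0.10 when any 1 replicate was left out. The adjusted permutation p of the difference was then 0.127 to 0.321, so it did not pass.

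The rhythm of both transcripts in the OT differed between DD and the diel series, with limma adjusted p of 0.0255 for Dbp-Ch14 and 0.000214 for Dbp-Ch5-1. For Dbp-Ch14 this limma p was 0.105 to 0.169 when any 1 replicate was left out, and it did not pass after scaling by the other transcripts. The peak was 3.68 h earlier in DD for Dbp-Ch14 and 3.78 h earlier for Dbp-Ch5-1. After scaling by the other transcripts the Dbp-Ch14 peak was at 20.1 h in the diel series and 19.4 h in DD, so its shift was smaller, and that of Dbp-Ch5-1 at 13.7 and 9.98 h. The fish of DD were the second arm. They were also sampled after the diel fish of the same hours and had fasted longer. Light, day and fasting cannot be told apart here, nor can tank if each arm had its own.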

How the results depend on the processing

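Direction and side of the threshold were kept by both OT diel rhythms, by the OT rhythms of Dbp-Ch5-1 in LL and DD and by the OT ratio rhythms under the other curve form, the other scaling and the other tests that were run for them. Leaving out replicate 1, 2 or 3 gave a JTK_CYCLE adjusted p of 0.000419 to 0.0544 for Dbp-Ch5-1 in the OT diel series, 0.00173 to 0.208 in LL and 0.00389 to 0.0833 in DD. The DD rhythm of Dbp-Ch14 in the OT ranged from 0.0499 to 0.456, and was not called with whole-interval curves (adjusted p = 0.104), after Benjamini-Hochberg over transcripts (0.125) or with the limma cosine (0.105). Calls appeared for Dbp-Ch5-1 in the SV diel series with the limma cosine (0.0422) and in gill LL after scaling by the other transcripts (0.0359). The change of rhythm of Dbp-Ch14 in the OT had limma adjusted p of 0.105 to 0.169 without a replicate and 0.0678 after scaling for DD against diel, and 0.00517 after scaling for LL against diel.

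The number of rhythmic transcripts moved with the settings. In OT DD it was 16, and 9 with whole-interval curves, 9 after Benjamini-Hochberg and 7 to 16 without a replicate. In SV diel it was 9, and 20 after scaling, 4 after Benjamini-Hochberg and 4 to 6 without a replicate. SV LL gave 0, and 5 after scaling and 0 to 1 without a replicate. SV DD gave 3, and 7 after scaling, 1 with whole-interval curves, 0 after Benjamini-Hochberg, 0 with the limma cosine and 0 to 9 without a replicate. Gill diel gave 6, and 0 after Benjamini-Hochberg or with limma and 1 to 3 without a replicate. Gill LL gave 6, and 2 with whole-interval curves, 0 after Benjamini-Hochberg or with limma and 2 to 3 without a replicate. Gill DD gave 4, and 1 after scaling, 1 with whole-interval curves, 0 after Benjamini-Hochberg or with limma and 1 to 3 without a replicate.

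Scaling by the other transcripts turned or moved level differences (log2). In the OT, LL minus DD became −0.073 for Dbp-Ch14 and −0.16 for Dbp-Ch5-1, LL minus diel −0.086 and −0.16, all of which then passed, and DD minus diel 0.037 for Dbp-Ch14. In the SV, Dbp-Ch14 became −0.14 for LL minus DD, −0.011 for lit minus dark at CT1, −0.050 for LL minus diel and 0.11 for DD minus diel, and Dbp-Ch5-1 −0.22 for LL minus DD and −0.058 at CT1. In the gill, Dbp-Ch14 became −0.034 for LL minus diel, and Dbp-Ch5-1 −0.033 for LL minus DD and 0.036 over CT1 and CT5. For Dbp-Ch14 in the gill over CT1 and CT5 (−0.24), an exact permutation within time points gave an unadjusted p of 0.045. The limma p of this difference was 0.129 unadjusted and 0.401 adjusted. Without a replicate, the OT lit minus dark difference of Dbp-Ch14 was −0.38 to −0.21 over CT1 and CT5 and −0.49 to −0.30 at CT5, and that of Dbp-Ch5-1 at CT5 −0.89 to −0.50. Ranges without a replicate that crossed 0 were −0.067 to 0.036 (LL minus diel) and −0.081 to 0.069 (DD minus diel) for Dbp-Ch14 and −0.17 to 0.025 (LL minus diel) for Dbp-Ch5-1 in the OT. In the SV they were −0.046 to 0.40 (CT1), −0.049 to 0.13 (LL minus diel) and −0.25 to 0.10 (DD minus diel) for Dbp-Ch14. For Dbp-Ch5-1 in the SV they were −0.067 to 0.16 (LL minus DD), −0.19 to 0.18 (CT1 and CT5), −0.40 to 0.10 (CT5) and −0.043 to 0.41 (DD minus diel). In the gill they were −0.16 to 0.077 (CT1) and −0.17 to 0.015 (DD minus diel) for Dbp-Ch14, and −0.067 to 0.067 (LL minus DD), −0.084 to 0.042 (CT1 and CT5) and −0.0011 to 0.56 (DD minus diel) for Dbp-Ch5-1.

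Between tissues, the OT minus SV amplitude of Dbp-Ch14 was −0.14 to 0.080 without a replicate and 0.024 after scaling. Its OT minus gill amplitude was 0.16 to 0.25 without a replicate, where the adjusted permutation p was 0.127 to 0.321. The SV minus gill amplitude of Dbp-Ch5-1 became −0.00023 after scaling. The limma test of OT against gill gave an adjusted p of 0.000578 for Dbp-Ch5-1 and 0.0403 for Dbp-Ch14. The gill LL ratio rhythm had p of 0.0522 to 0.496 without a replicate. With the fish as a replicate block, the adjusted permutation p of the OT minus gill amplitude was 0.0158 for Dbp-Ch14 and 0.177 for Dbp-Ch5-1, and no call changed. The cause of these changes was not tested, and leaving out a replicate also left fewer fish per group. Leaving out samples worth over 2 signal units per step was chosen after seeing the data and changed no Dbp call. An edgeR test of the barcode steps was planned and not run. Few barcodes (a median of 38 for Dbp-Ch5-1 in the SV) and 3 fish per group limit what the SV and gill can show.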
